A study of Mus musculus with 8 samples.

Results

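Interferon-high T and NK lymphocytes are cell barcodes of tumour-bearing mouse liver that carry a lymphocyte transcript together with several interferon-induced transcripts. They were chosen by their own counts. A barcode had at least 500 gene UMIs (unique molecular identifiers, 1 for each captured transcript), at least 300 genes and at most 20% mitochondrial UMIs. It had a UMI in at least 4 of 9 interferon-induced genes (Ifit1, Ifit3, Ifit3b, Usp18, Mx1, Isg15, Herc6, Ddx60 and Rsad2), a UMI in at least 1 of Cd3d, Cd3e, Cd3g, Ncr1 and Klrb1c, and none in Cd79a, Lyz2 and C1qa. This rule kept 491 of 21482 barcodes past the quality limits, and 491 of the 6109 that met the lymphocyte part of the rule. The other 5618 lymphocytes served as the comparison.

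The series measured single-cell mRNA in 6 droplet libraries of liver, 3 per group, to ask what the nuclear receptor Nr4a1 does in cells that express Ncr1. Controls were Ncr1WT, Nr4a1fl/fl mice, which carry the floxed gene without Cre, and mice labelled knockout were Ncr1iCre, Nr4a1fl/fl. In both groups liver tumours had been started in C57BL/6 males aged 8 to 10 weeks by hydrodynamic tail vein injection of 30 µg plasmid, which held CRISPR-Cas9 with a guide against Trp53, a c-Myc transposon and the transposase SB13, and livers were taken 4 to 5 weeks later. Control 3 pooled 3 mice and knockout 3 pooled 2, told apart by hashtags, and the labels give no number of mice for the other libraries. The Ncr1 promoter drives Cre in NK cells and in ILC1, a related innate lymphocyte, and not in most T cells, so most T lymphocytes of the knockout libraries are expected to keep Nr4a1.

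Type I interferons bind the receptor of Ifnar1 and Ifnar2, and the kinases Jak1 and Tyk2 then activate transcription factors, among them Stat2. With Irf9 it takes part in a complex that binds a short DNA motif, the interferon-stimulated response element (ISRE), in front of antiviral genes. Interferon gamma, made by T and NK cells, acts through Ifngr1 and Ifngr2, and its response is known for another motif, the gamma-activated site (GAS), and both routes share many targets.

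Libraries differed in quality. They held 549 and 134 quality barcodes in control 2 and knockout 2 against 2697 to 10128 in the other 4, and the median mitochondrial share of barcodes with at least 500 UMIs was 27.9% and 75.1% there against 6.68% to 10.0% elsewhere. Control 2 gave 4 of the 491 cells and knockout 2 gave 2, so tests across genes used the 4 libraries numbered 1 and 3, which held 45, 268, 97 and 75 of the cells (control 1, control 3, knockout 1 and knockout 3). Levels are UMIs summed per library and expressed per 1000000 UMIs (CPM). The labels call the libraries replicates without naming separate mice for those numbered 1 and 2, and p-values measure the spread between these libraries.

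The label was checked against markers of other cells. T cell transcripts (Trac, Trbc1, Trbc2, Cd4, Cd8a, Cd8b1) were present at 1450, 1840, 2030 and 1330 summed CPM in the interferon-high cells of control 1, control 3, knockout 1 and knockout 3, beside 1210, 1770, 1720 and 1120 in the other lymphocytes. Transcripts of hepatocytes, red cells and endothelium went against a pure lymphocyte label, most of all in the libraries numbered 3. The 6 hepatocyte markers summed to 163, 1810, 538 and 3620 CPM in the interferon-high cells of these 4 libraries, beside 861, 2290, 584 and 3170 CPM in the other lymphocytes. The 4 platelet and red cell markers summed to 3.98, 960, 0 and 39.2 CPM, beside 8.65, 1500, 4.57 and 1520 CPM. A UMI of Ptprb, Stab2, Clec4g or Kdr, genes of vascular and liver sinusoidal endothelium, was found in 89 of 268 interferon-high cells of control 3 (33.2%, exact 95% interval 27.6 to 39.2) and in 16 of 75 of knockout 3 (21.3%, 12.7 to 32.3). In the other lymphocytes the shares were 15.0% (13.7 to 16.2) and 14.4% (12.4 to 16.7). Cells with the B cell gene Cd79a, which should lack these transcripts, had 13.2% (12.0 to 14.5) in control 3 and 12.7% (10.7 to 15.0) in knockout 3, at median depths of 3250 and 2478 UMIs against 6703.5 and 4396 in the interferon-high cells. With every cell thinned to 1000 UMIs, the shares in control 3 were 20.5% (15.9 to 25.9) of interferon-high cells, 8.44% (7.48 to 9.49) of other lymphocytes and 5.60% (4.78 to 6.52) of Cd79a-positive cells. In knockout 3 they were 14.7% (7.56 to 24.7), 9.12% (7.40 to 11.1) and 8.24% (6.55 to 10.2). The thinned intervals of interferon-high cells and other lymphocytes did not overlap in control 3 and did in knockout 3. The list of 5 endothelial markers summed to 74.5 to 909 CPM in interferon-high cells and 57.7 to 321 CPM in other lymphocytes, with 4 of the 5 at 0 in interferon-high cells of control 1, control 2 and knockout 2. In the remaining libraries 0 of 45, 0 of 4, 3 of 97 and 0 of 2 interferon-high cells (controls 1 and 2, knockouts 1 and 2) had such a UMI. Hashtags of more than 1 mouse marked 56 of 268 and 14 of 75 interferon-high cells in control 3 and knockout 3, and 353 of 3156 and 133 of 1066 other lymphocytes. The comparisons across genes were therefore also made without the 108 interferon-high cells and 649 other lymphocytes that had an endothelial UMI, an alternative added after the data were seen. No barcode of the 491 was shared between libraries.

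**Figure D1:**
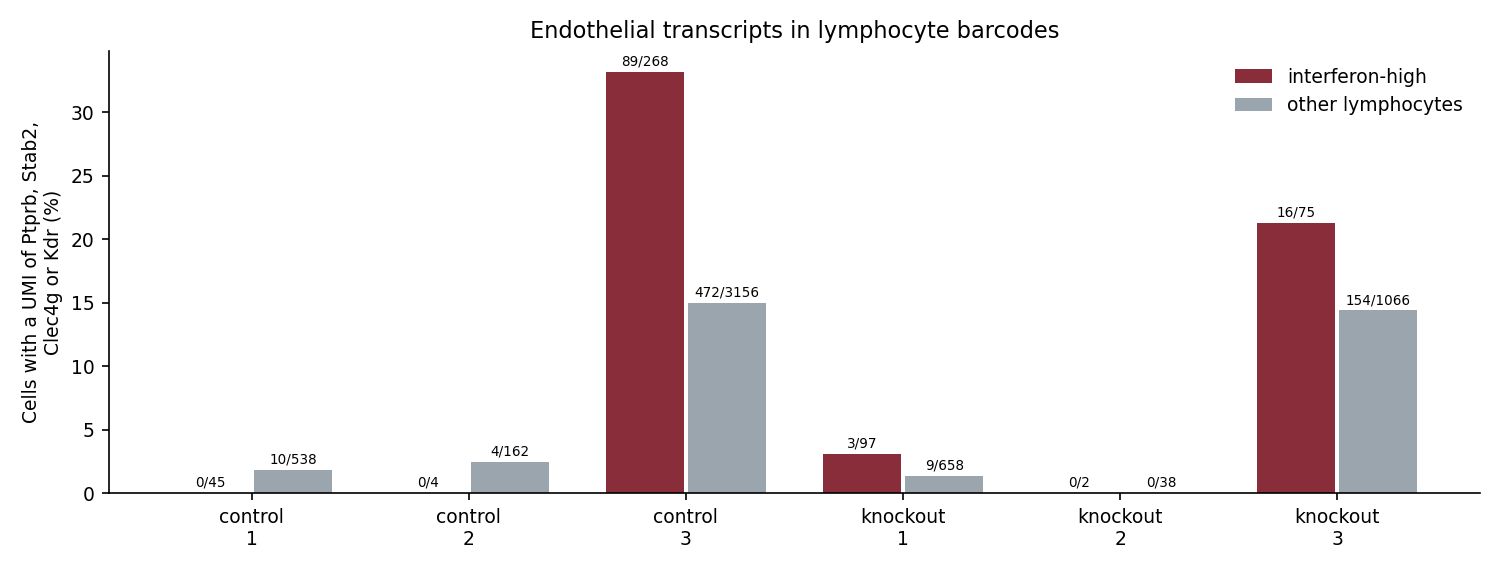
Share of barcodes with at least 1 UMI of Ptprb, Stab2, Clec4g or Kdr (y axis, %, counts above each bar) in interferon-high cells and in other lymphocytes of each library (x axis). Control 3 and knockout 3 stand above the other 4 libraries, and control 3 shows the tallest bar, 89 of 268.

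Nr4a1 itself, the targeted gene, was read at 15.9, 47.3, 69.7 and 39.2 CPM in the interferon-high cells of control 1, control 3, knockout 1 and knockout 3, and at 66.9, 43.0, 85.0 and 37.7 CPM in their other lymphocytes. The groups overlapped in both. The reads come from the 3′ end, the labels do not state which part of the gene is floxed, and most of these cells are T-gated, so the gene checks no label here.

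Interferon-high cells made up 8.04% of the lymphocytes in all (exact 95% interval 7.37 to 8.75). By library they were 45 of 583 lymphocytes of control 1 (7.72%, 5.69 to 10.2), 4 cells of control 2 (2.41%, 0.660 to 6.05) and 268 of 3424 of control 3 (7.83%, 6.95 to 8.78). In the libraries labelled knockout they were 97 of 755 (12.9%, 10.5 to 15.5), 2 of 40 (5.00%, 0.611 to 16.9) and 75 of 1141 (6.57%, 5.21 to 8.17). Knockout 1 stood highest and the 2 poor libraries lowest, and the groups overlapped. Means were 5.99% ± 3.10 (SD, n = 3) in controls and 8.14% ± 4.15 (SD, n = 3) in knockouts, a difference of 2.16 percentage points (two-sided exact permutation test, p = 0.6, where 3 against 3 cannot go below 0.1). Without knockout 1 the difference was -0.199 points. Within pooled libraries the mice also differed, with 6.37%, 7.13% and 10.6% in the 3 mice of control 3 (intervals 4.94 to 8.06, 5.77 to 8.69 and 7.27 to 14.8) and 8.51% and 3.95% in the 2 mice of knockout 3 (6.06 to 11.5 and 2.32 to 6.26).

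A rule of 4 detected genes depends on depth, and interferon-high cells had a median of 5959 UMIs against 4203 in the other lymphocytes. The whole rule, lymphocyte gate included, was therefore applied again after thinning each cell to 1000 UMIs, which left out 21, 20, 123, 3, 5 and 68 lymphocytes (controls 1 to 3, then knockouts 1 to 3). It then kept 7 of 453, 1 of 123 and 22 of 2967 lymphocytes in controls. It kept 16 of 626, 2 of 28 and 19 of 889 in knockouts. These are 1.55% (0.623 to 3.16), 0.813% (0.0206 to 4.45) and 0.741% (0.465 to 1.12) against 2.56% (1.47 to 4.12), 7.14% (0.877 to 23.5) and 2.14% (1.29 to 3.32). Every knockout library thus lay above every control library (exact permutation p = 0.1, the smallest that 3 against 3 allow). With the limit lowered to 2 of the 9 genes the groups overlapped, with control 1 at 7.285% above knockout 2 at 7.143% (exact permutation p = 0.2). The summed level of the 9 genes over all lymphocytes, which needs no threshold, stood at 393, 243 and 338 CPM in the control libraries and at 521, 361 and 289 CPM in the knockout libraries, in order of their numbers. There control 3 lay above knockout 3 and control 1 above knockouts 2 and 3. This goes against the order of the thinned shares at 4 of the 9 genes, which is not read further. Without endothelial barcodes control 1 still lay above knockouts 2 and 3 (392 against 361 and 329 CPM), while control 3 lay below knockout 3 (316 against 329 CPM).

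**Figure D2:**
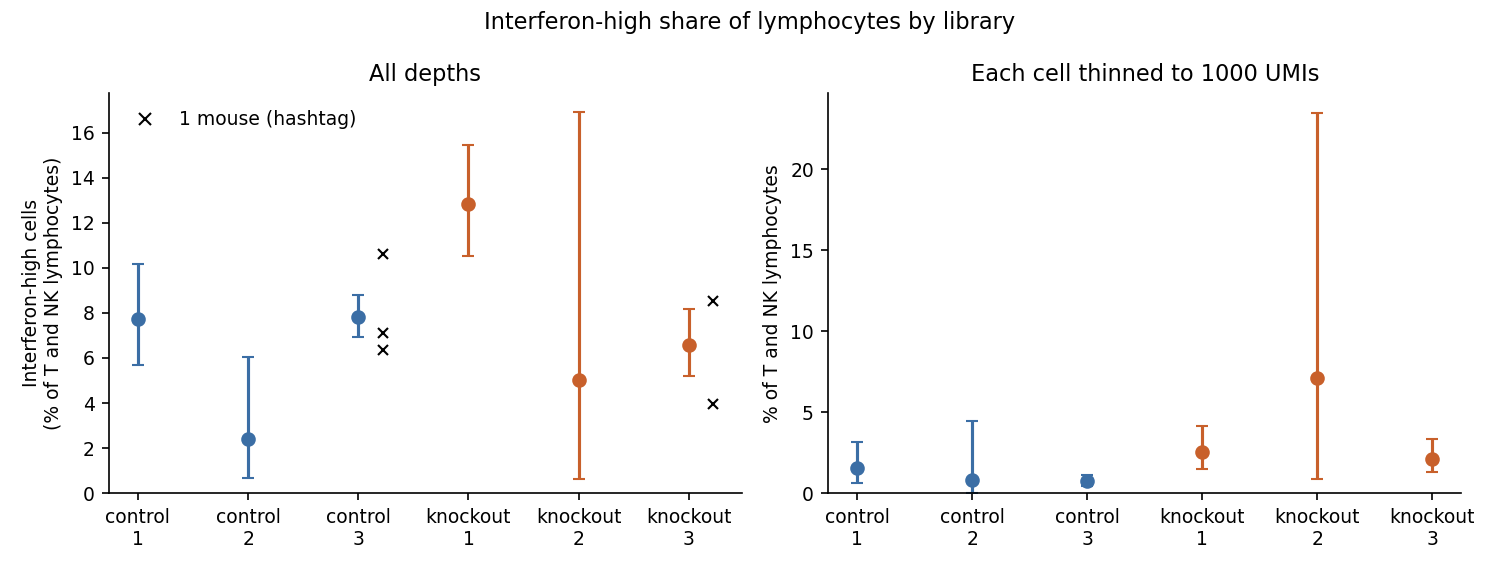
Interferon-high share of T and NK lymphocytes (y axes, %) in each library (x axes), at full depth on the left and with each cell thinned to 1000 UMIs on the right. Points are libraries, bars exact 95% binomial intervals for counting error only, and crosses mice told apart by hashtags in the libraries numbered 3. The groups overlap on the left, where knockout 1 is highest at 12.9%.

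The 9 genes of the rule chose the cells, so their levels are a description. Isg15, a ubiquitin-like protein that is attached to other proteins and also secreted, was read in 89.8% of interferon-high cells, at 864, 508, 851 and 711 CPM in control 1, control 3, knockout 1 and knockout 3. Ifit1 and Ifit3, which bind foreign RNA, were pooled over all libraries at 184 and 168 CPM, against 13.2 and 7.76 CPM in the other lymphocytes. Usp18, the protease that removes Isg15 and restrains the receptor, was at 121 CPM against 19.5, and Rsad2, the antiviral enzyme viperin, was at 121 CPM against 5.36 although only 38.9% of the cells had a UMI of it. The number of rule genes fell off gradually over lymphocytes: 2457 cells had none of the 9, 1793 had 1, 941 had 2, 427 had 3, 205 had 4, 115 had 5, 76 had 6, 52 had 7, 26 had 8 and 17 had 9. Just outside the rule, the 427 lymphocytes with 3 of the 9 genes held 499 summed CPM of them and 211 CPM of Isg15. Just inside, the 205 cells with 4 held 845 and 337 CPM. No gap in the counts separates the set from its neighbours.

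Promoter letters are shown because 6 of the 7 rule genes that matched in RefSeq (build GRCm38.p6, matched by symbol, 250 bases before to 50 after the start of the gene) hold an ISRE. The motif searched was TTTC, any 2 bases and TTTC again, on either strand, which reads as GAAA, any 2 bases and GAAA on the other. It stood in the promoters of 3.44% of all 32851 entries and of 3.99% of 27025 genes. Capitals mark it, adjoining copies run together, and sequences are given on the strand of the gene. The windows lie at chr19:34640779-34640838 (+) for Ifit1, chr19:34583382-34583441 (+) for Ifit3, chr4:156200850-156200909 (-) for Isg15 and chr12:26456538-26456597 (-) for Rsad2. Among genes outside the rule that were higher in the set, Cxcl10 at chr5:92349068-92349127 (-) and Stat2 at chr10:128270251-128270310 (+) are shown.
Ifit1: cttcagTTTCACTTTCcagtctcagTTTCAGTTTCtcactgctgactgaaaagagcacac
Ifit3: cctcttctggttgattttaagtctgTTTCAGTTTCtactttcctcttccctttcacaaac
Isg15: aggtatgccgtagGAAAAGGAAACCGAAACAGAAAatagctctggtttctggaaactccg
Rsad2: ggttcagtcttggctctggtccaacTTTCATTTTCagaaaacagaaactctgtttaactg
Cxcl10: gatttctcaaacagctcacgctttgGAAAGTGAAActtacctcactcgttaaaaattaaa
Stat2: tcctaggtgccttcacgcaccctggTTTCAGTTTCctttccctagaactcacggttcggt
The marked motifs all lie before the start. Ifit3b has the same letters as Ifit3 in its window, so reads of this pair of near-identical genes may be split between them and their separate levels are uncertain.

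Genes outside the rule were compared between the interferon-high cells and the other lymphocytes of the same library with edgeR's quasi-likelihood test over 11740 genes, leaving out the 17 genes of the rule. A total of 304 genes passed (2.59%), 271 higher (2.31%) and 33 lower (0.281%), and 207 of the 271 and 30 of the 33 had the same sign in all 4 libraries. Without the barcodes with an endothelial UMI, 188 (1.74%) of 10800 genes were higher and 14 (0.13%) lower, of which 172 and 10 were among the first. Leaving out control 3, knockout 1 or knockout 3 gave 137, 154 and 194 genes in place of 304. As the cells were picked on interferon-induced genes, a rise of further interferon-induced genes is not independent evidence of a response, and the counts below describe its breadth. The median log2 difference over all genes tested was -0.03.

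**Figure D3:**
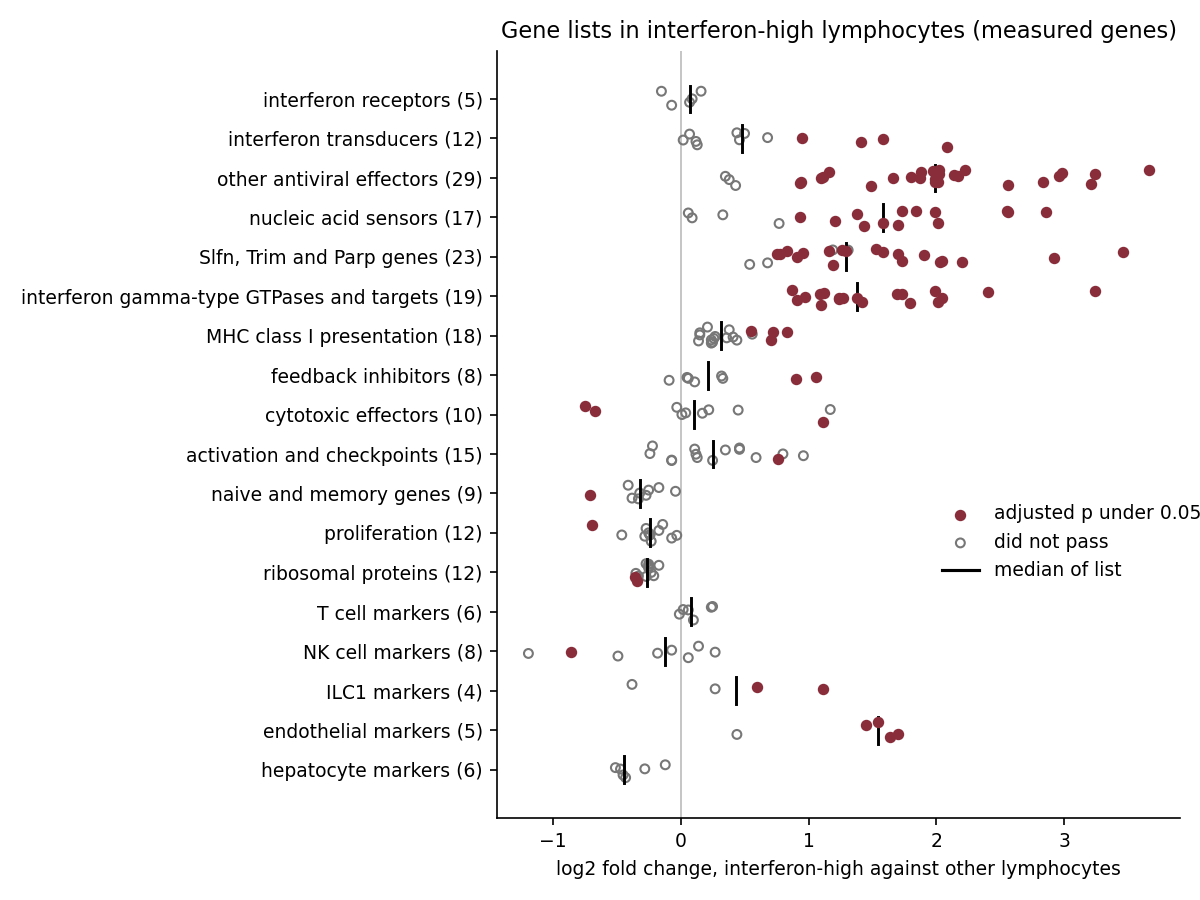
Log2 fold change between interferon-high and other lymphocytes (x axis) of each measured gene in 18 lists (y axis, number measured in brackets). Filled points passed an adjusted p of 0.05 in edgeR, open points did not, and vertical bars are list medians. Antiviral, sensor, Slfn, Trim, Parp and GTPase lists lie to the right of 0, receptors and T cell markers lie near 0, and 4 endothelial markers lie above 1.

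Of the ligands, type I and lambda interferons were scarce in these cells and interferon gamma was not. Of 10 interferon genes looked for, Ifng was the only one with enough counts to test, and Ifnb1, the type I gene made early after infection, had 1 UMI in interferon-high cells, 0 in other lymphocytes and 75 elsewhere in the data. The 4 Ifna genes had no UMI in the set, which allows up to 0.594 CPM each (3 counts over its 5046391 UMIs, counting error only). Ifng stood at 139, 157, 195 and 109 CPM in the interferon-high cells of control 1, control 3, knockout 1 and knockout 3 and at 144, 140, 171 and 81.8 CPM in their neighbours. It was higher in 3 of 4 libraries and did not pass (log2 0.14 ± 0.12 SE, edgeR adjusted p = 0.691).

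Receptors did not pass either, 0 of 5 measured, with log2 differences from -0.15 to 0.16. Ifnar1 was at 39.8, 40.8, 76.9 and 32.3 CPM in interferon-high cells and 49.3, 40.0, 51.3 and 32.0 CPM in other lymphocytes (log2 0.09 ± 0.17 SE, edgeR adjusted p = 0.899). Ifnar2 differed by 0.16 ± 0.12, Ifngr1 by -0.07 ± 0.11, Il10rb, a subunit of the lambda interferon receptor, by 0.07 ± 0.16 and Ifngr2 by -0.15 ± 0.40 on the log2 scale (SE). Levels of the receptors overlapped between both kinds of cell.

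Of 12 transducers, 4 were higher and 8 did not pass, with a list median of 0.48. Stat2, a subunit of the complex that binds the ISRE, was at 75.6, 59.0, 93.7 and 65.7 CPM in the interferon-high cells of control 1, control 3, knockout 1 and knockout 3, against 22.4, 22.3, 25.5 and 21.5 CPM (log2 1.58 ± 0.15 SE, edgeR adjusted p = 0.000227). Every interferon-high value lay above every other value. Irf7, the factor that amplifies type I interferon genes, reached 131, 81.9, 73.3 and 84.1 CPM against 17.6, 26.3, 21.8 and 12.9 CPM (log2 2.08 ± 0.21, edgeR adjusted p = 0.000314). Irf9, which binds DNA in the same complex as Stat2, rose by 0.95 ± 0.19 (edgeR adjusted p = 0.0222), a call lost without control 3, knockout 1 or knockout 3. The kinases Jak1 and Tyk2 had differences of 0.12 and 0.13, and Jak2 had 0.50 (edgeR adjusted p = 0.0746). Irf3, a factor that acts downstream of nucleic acid sensors before any interferon is made, had 0.02.

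Antiviral effectors outside the rule were higher in 26 of 29 measured, with a median log2 difference of 1.99. Ifit2, of the same RNA-binding family as Ifit1, was at 259, 126, 322 and 221 CPM against 26.3, 19.1, 24.8 and 18.3 CPM (log2 3.24 ± 0.17 SE, edgeR adjusted p = 9.05e-06). Mx2, a dynamin-like GTPase, was at 95.5, 48.9, 91.3 and 51.9 CPM against 6.08, 5.44, 7.90 and 7.74 CPM (log2 3.21 ± 0.21, edgeR adjusted p = 1.81e-05). Values of the 2 kinds of cell did not overlap for either gene. Ifi44, a cytoplasmic protein whose rise was the largest of the 10 named by size, was at 95.5, 27.1, 45.7 and 19.6 CPM against 2.56, 3.21, 2.28 and 2.33 CPM (log2 3.66 ± 0.34, edgeR adjusted p = 0.000216). Oasl1 and Oasl2, of the oligoadenylate synthetase-like family, rose by 2.98 and 2.96, and the mitochondrial nucleotide kinase Cmpk2 by 2.83. Zbp1, a sensor of Z-form nucleic acid that can start cell death, rose by 1.66. Apobec3, an editing enzyme that acts on retroviruses, did not pass. Without endothelial barcodes 24 of 28 passed.

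**Figure D4:**
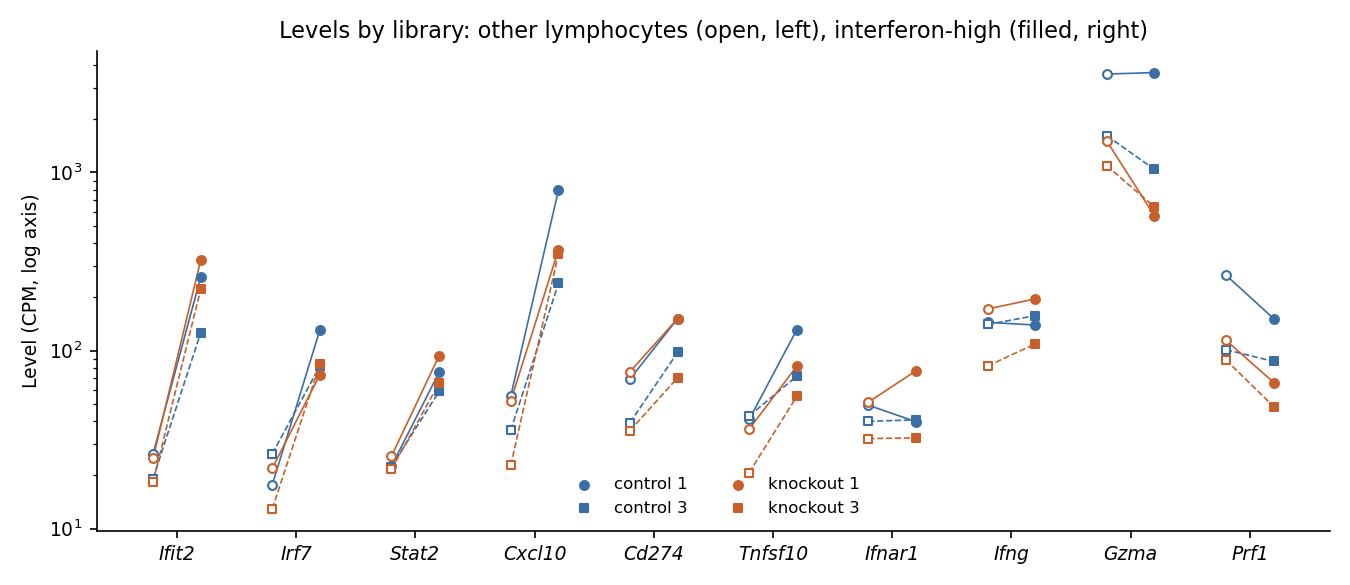
Levels of 10 genes (x axis) in CPM on a log axis (y axis), with other lymphocytes as open and interferon-high cells as filled symbols, joined within each of the 4 libraries. Ifit2, Irf7, Stat2, Cxcl10 and Cd274 rise in every library, Ifnar1 and Ifng overlap, and Prf1 falls in every library.

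Nucleic acid sensors were raised in 13 of 17 measured (median 1.58). Ifih1, the sensor of long double-stranded RNA, was at 187, 81.2, 133 and 72.6 CPM against 21.1, 21.1, 15.3 and 12.1 CPM (log2 2.55 ± 0.21 SE, edgeR adjusted p = 9.85e-05). Ifi204, a DNA-binding protein of a mouse gene cluster, was at 67.7, 43.4, 30.0 and 35.7 CPM against 2.88, 6.96, 4.92 and 5.20 CPM (log2 2.86 ± 0.27, edgeR adjusted p = 0.000227). The adaptors Mavs and Sting1 and the sensors Cgas and Aim2 did not pass. In the Slfn, Trim and Parp list 19 of 23 were higher (median 1.29). Slfn5 was at 135, 87.4, 115 and 100 CPM against 9.93, 16.6, 11.6 and 12.4 CPM (log2 2.92 ± 0.20, edgeR adjusted p = 3.43e-05). Trim30c rose by 3.46, Trim30d by 2.20 and the ADP-ribosyltransferase Parp14 by 1.70. Genes of the Ifi200, Slfn and Trim30 clusters are close copies of each other, so their separate counts are uncertain. Of 3 measured genes of the Isg15 pathway outside the rule, the protease Usp25 passed (0.91, lost without knockout 1), and Uba7 and Ube2l6, the enzymes that attach Isg15, had 1.15 and 0.92 (edgeR adjusted p = 0.0809 and 0.13).

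GTPases and chemokines that are best known as interferon gamma targets were higher in 19 of 19 measured, with a median of 1.38 and a range of 0.87 to 3.24, and in 18 of 19 without endothelial barcodes. Cxcl10, which attracts T and NK cells through Cxcr3, was at 792, 238, 367 and 348 CPM against 55.4, 35.6, 52.0 and 22.6 CPM (log2 3.24 ± 0.20 SE, edgeR adjusted p = 1.75e-05). Iigp1, a GTPase that attacks the vacuoles of parasites, was at 55.7, 88.4, 113 and 71.5 CPM against 6.40, 19.8, 16.7 and 14.1 CPM (log2 2.40 ± 0.17, edgeR adjusted p = 4.63e-05). Both genes rose in each of the 4 libraries. The guanylate-binding protein Gbp6 rose by 2.04 and Irgm1, which controls the GTPases of its family, by 1.73. In their promoters 10 of 13 matched genes (76.9%) held an ISRE, and 7 of 13 (53.8%) held a GAS, searched as TTCNNNGAA, which 9.55% of all genes hold. A GAS also stood in 9 of 23 antiviral effectors (39.1%) and in 3 of 11 transducers (27.3%). It stood in only 1 of 17 nucleic acid sensors (5.88%), 2 of 21 Slfn, Trim and Parp genes (9.52%) and 1 of 16 MHC class I genes (6.25%). Among higher genes 25 of 210 held a GAS (11.9%), against 8.43% of the matched genes tested. Both motifs can share letters. None of the 7 matched rule genes held a GAS in its promoter. Over the 271 higher genes, 55 of 210 matched (26.2%) held an ISRE, against 3.88% of 9153 matched genes tested. The share was 36.1% of 133 matched genes that were also higher without endothelial barcodes, and 9.09% of 77 that were not. A match is a run of letters and not a measured binding site.

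Genes of MHC class I presentation showed small differences. All 18 measured genes had positive log2 differences, from 0.14 to 0.83 with a median of 0.31, and 4 passed. Nlrc5, the transactivator of class I genes, was at 255, 158, 274 and 123 CPM against 95.1, 110, 136 and 73.2 CPM (log2 0.83 ± 0.14 SE, edgeR adjusted p = 0.00851). Tapbp, the chaperone tapasin, rose by 0.72, and the nonclassical class I genes H2-T22 and H2-T23 by 0.71 and 0.55. H2-K1, H2-D1 and B2m, which form the classical molecules, did not pass. These 4 calls were lost without knockout 1, those of Tapbp and H2-T23 also without control 3, and that of H2-T23 also without knockout 3. Of 8 feedback inhibitors 2 were higher. Cd274, the inhibitory ligand PD-L1, was at 151, 97.5, 151 and 70.3 CPM against 69.2, 39.3, 75.9 and 35.5 CPM (log2 1.06 ± 0.12, edgeR adjusted p = 0.000735). Socs1, which blocks Jak kinases, rose by 0.90 ± 0.17 (edgeR adjusted p = 0.0186), a call lost without knockout 1 or knockout 3.

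Response lists outside the rule were also followed along the number of rule genes, as a description. In control 3, the library with most cells, the antiviral list summed to 1900, 1630, 1840 and 2410 CPM in lymphocytes with 0, 1, 2 and 3 of the 9 genes and to 3160, 3470 and 5030 CPM in those with 4, 5 and 6 to 9. In knockout 3 it summed to 1570, 1210, 1090 and 1630 CPM and then to 2120, 1940 and 5440 CPM. Over the 4 libraries it lay between 1090 and 2060 CPM below 3 genes, and it was highest in the uppermost bin in 3 of them, while control 1 had 4930 CPM at 5 genes and 4390 at 6 to 9. The GTPase list in control 3 went from 684 CPM at 0 genes to 985 at 4 and 2160 at 6 to 9, and in knockout 1 from 582 to 1010 and 2910 CPM. MHC class I genes spanned a smaller range relative to their level, 6310 to 9110 CPM over all bins of control 3. Bins of 4 genes or more held 14, 14 and 17 cells in control 1, and that of 5 genes held 15 in knockout 3, so single bins of these libraries rest on few cells.

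**Figure D5:**
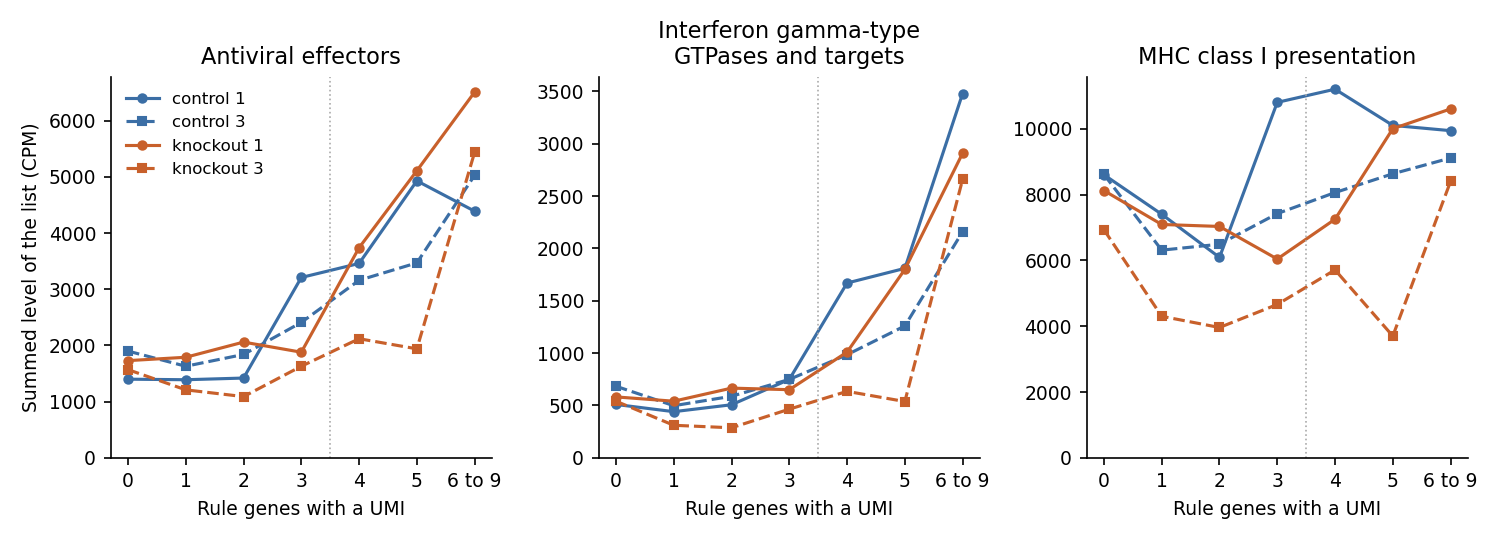
Summed level in CPM (y axes, from 0) of 3 gene lists outside the rule, in lymphocytes grouped by how many of the 9 rule genes had a UMI (x axes), 1 line for each of 4 libraries. The dotted line marks the limit of the rule between 3 and 4 genes. Antiviral and GTPase lists are highest at 6 to 9 genes, except for antiviral genes in control 1, and the MHC class I list spans a smaller relative range.

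Among 10 cytotoxic genes, Tnfsf10, the death ligand TRAIL, was higher and Prf1 and Gzma, perforin and granzyme A, were lower. Tnfsf10 was at 131, 71.8, 81.7 and 55.3 CPM against 41.0, 42.9, 36.2 and 20.6 CPM (log2 1.11 ± 0.17 SE, edgeR adjusted p = 0.00377). Prf1 was at 151, 86.8, 66.1 and 48.4 CPM against 265, 101, 114 and 88.4 CPM and fell by 0.67 ± 0.14 (edgeR adjusted p = 0.0321). Gzma was at 3640, 1040, 570 and 640 CPM against 3570, 1610, 1500 and 1090 CPM and fell by 0.75 ± 0.16 (edgeR adjusted p = 0.0335), lower in 3 of 4 libraries, with control 1 slightly higher. Without endothelial barcodes the differences were of similar size, -0.58 for Prf1 and -0.61 for Gzma, but did not pass (edgeR adjusted p = 0.109 and 0.111). Both calls were also lost on leaving out knockout 1 or knockout 3, Prf1 also without control 1 and Gzma also without control 3. The NK-gated share of cells was 37.8%, 9.33%, 9.28% and 9.33% of interferon-high cells and 42.4%, 14.1%, 9.27% and 15.0% of other lymphocytes in the same 4 libraries. This share was lower in the interferon-high cells of control 1, control 3 and knockout 3 and alike in knockout 1. The part of these shares in the differences of Prf1 and Gzma was not tested.

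Lists of state genes held single calls or pairs of calls. Over all genes tested 2.31% were higher and 0.281% lower, so these counts do not show that state genes changed less often than others. Of 15 activation and checkpoint genes, Cd69, an early activation receptor that keeps lymphocytes in tissue, passed, at 370, 137, 357 and 176 CPM against 185, 107, 181 and 86.6 CPM (log2 0.76 ± 0.13 SE, edgeR adjusted p = 0.00976). Its call was lost without knockout 1 or knockout 3. Pdcd1 of the same list did not pass (0.96 ± 0.23, edgeR adjusted p = 0.055). It did pass without endothelial barcodes (1.13, edgeR adjusted p = 0.0251) and with DESeq2 (adjusted p = 0.0341). Atf3, a stress-induced factor, was the 1 of 10 immediate early genes to rise (1.07 ± 0.18, edgeR adjusted p = 0.00908), a call lost without control 3. Ikzf2, known from regulatory T cells, rose by 0.84 ± 0.17 (edgeR adjusted p = 0.0218; lost without knockout 1), while Foxp3 of the same list did not pass (0.35). Lef1, a factor of naive T cells, fell by 0.71 ± 0.13 (edgeR adjusted p = 0.0153), 1 of 9 naive and memory genes to pass, all 9 with negative values. Cdk1, the mitotic kinase, fell by 0.69 ± 0.14 (edgeR adjusted p = 0.022), 1 of 12 proliferation genes, again all negative. Of 12 ribosomal proteins Rplp0 and Rps18 fell by 0.36 and 0.34. The calls of Lef1, Cdk1, Rplp0 and Rps18 were each lost without control 3, knockout 1 or knockout 3. Without endothelial barcodes they stood at -0.68, -0.50, -0.32 and -0.29 and did not pass (edgeR adjusted p = 0.0675, 0.147, 0.111 and 0.154). Rplp0 and Rps18 did not pass with DESeq2 (adjusted p = 0.101 and 0.129).

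Lineage markers were compared between the 2 kinds of cell in the same way, where 2.59% of all genes passed in either direction. Of 6 T cell markers none passed (-0.01 to 0.25), nor did any of 3 measured gamma delta markers, and of 8 NK markers Klra4, an activating Ly49 receptor, was lower (-0.86 ± 0.17 SE, edgeR adjusted p = 0.0188). Without endothelial barcodes Klra4 was at -0.73 (edgeR adjusted p = 0.0558). Of 4 ILC1 markers Tnfsf10, which is also in the cytotoxic list, and Itga1 were higher, while Cxcr6 (0.27) and Il7r (-0.38) did not pass. Itga1 rose by 0.60 ± 0.13 (edgeR adjusted p = 0.0274), and by 0.52 without endothelial barcodes (edgeR adjusted p = 0.145). The calls of Klra4 and Itga1 were each lost without control 3, knockout 1 or knockout 3. Of 3 B cell markers, 3 monocyte markers and 6 hepatocyte markers none passed, the last at -0.51 to -0.12. Of 5 endothelial markers 4 were higher, Clec4g by 1.70, Ptprb by 1.64, Stab2 by 1.54 and Kdr by 1.45, the calls of all but Ptprb being lost without control 3, and that of Stab2 also without knockout 1. DESeq2 called Ptprb and not Kdr, Clec4g or Stab2 (adjusted p = 0.0801, 0.287 and 0.851). Their values came from the libraries numbered 3 and, at lower levels, knockout 1, for example 0, 322, 51.7 and 145 CPM of Ptprb in control 1, control 3, knockout 1 and knockout 3, against 1.28, 109, 6.15 and 61.1 CPM in other lymphocytes.

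The genes that fell most were few, and some of them were read at low levels. Spp1, the secreted protein osteopontin, was at 27.9, 26.1, 8.41 and 12.7 CPM in interferon-high cells against 414, 118, 45.7 and 35.5 CPM (log2 -2.47 ± 0.25 SE, edgeR adjusted p = 0.000314), lower in each library. Cma1, a chymase, was at 19.9, 1.30, 1.20 and 0 CPM against 17, 33.0, 4.39 and 65.6 CPM (-3.97 ± 0.65, edgeR adjusted p = 0.00646). It was not lower in control 1, and the call was lost without control 3 or knockout 3 and with DESeq2 (adjusted p = 0.257). Ifitm1, an interferon-induced membrane protein in many cells, was at 0, 6.85, 0 and 3.46 CPM against 11.8, 23.2, 9.66 and 26.3 CPM (-2.32 ± 0.37, edgeR adjusted p = 0.00615). It fell where the related Ifitm3 was among the genes that rose. Klra5, Slc28a2b, Gm29966, Fhod3, Tmed6, Gm36041 and Dlk1 completed the 10, at -2.72 to -1.62. Without endothelial barcodes Fhod3 and Tmed6 kept their size (-1.50 and -1.77), Gm36041 and Dlk1 were smaller (-1.13 and -0.82), and none of these 4 passed. Each of the 7 but Dlk1 was lost on leaving out at least 1 library, and Gm29966, Fhod3 and Gm36041 also with DESeq2 (adjusted p = 0.202, 0.105 and 0.0565). A gene with no UMI in the interferon-high cells of control 1 may lie at up to 11.9 CPM there (3 counts), so zeros of low genes in that library hold little information.

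Within interferon-high cells no gene passed between knockout and control, 0 of 8786 (0.0%) with edgeR, where 42 had an unadjusted p under 0.05, and 0 with DESeq2, where 24 did. Only 2 libraries per group entered, and the count of 0 does not show that the groups were alike. Without endothelial barcodes 0 of 7870 passed (58 at an unadjusted p under 0.05). Antiviral effectors had a median log2 difference of -0.08 over 28 measured genes (range -0.89 to 0.60), GTPases of -0.23 over 19 and MHC class I genes of -0.31 over 18, with 0 passing in each, against a median of -0.01 over all genes. The summed level of the 9 rule genes reached 2700 CPM in control 1 and 1380 CPM in control 3, beside 2380 CPM in knockout 1 and 1670 CPM in knockout 3. It is a description only, since these genes chose the cells by a rule that depends on depth. Median depths of the cells were 4506, 6703.5, 6299 and 4396 UMIs in control 1, control 3, knockout 1 and knockout 3. Genes with the smallest p were Klra8, Serpine2, Scart1, H2bc24 and Ccdc88a. Klra8, an activating Ly49 receptor of NK cells, was at 231 and 49.9 CPM in controls against 18 and 11.5 CPM in knockouts (log2 -3.13 ± 0.82 SE, edgeR adjusted p = 1.0). Serpine2, a protease inhibitor, was at 3.98 and 2.94 CPM against 32.5 and 13.8 CPM (2.85 ± 0.79, edgeR adjusted p = 1.0). All 7 measured NK markers had negative differences (median -0.82) and none passed. Beside them stands the NK-gated share of interferon-high cells, 37.8% in control 1 and 9.28% to 9.33% in control 3 and both knockouts, whose part was not tested. Leaving out control 1 gave 19 genes and leaving out control 3 gave 258, fits in which the lone control is assumed to vary like the knockouts.

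The difference between interferon-high and other lymphocytes was also compared between groups. Of 12920 genes 6 passed with edgeR (0.0464%), 1 (0.00774%) with a positive and 5 (0.0387%) with a negative interaction. A negative value means that the log2 difference was lower in knockout, and not that it was smaller in size. None of these 6 was in an interferon response list. They were Hamp, the liver hormone hepcidin, with an interaction of 3.88 ± 0.61 on the log2 scale, the globins Hba-a1 (-6.37), Hba-a2 (-4.48), Hbb-bs (-4.32) and Hbb-bt (-5.54), and the stress cytokine Gdf15 (-5.88). Hba-a1 was at 369 CPM in the interferon-high cells of control 3 and 3.46 CPM in those of knockout 3, and at 0 in both libraries numbered 1, while the other lymphocytes of control 3 and knockout 3 held 528 and 435 CPM. All 6 passed without control 1 or knockout 1, and 1 of them without control 3 or knockout 3. With mice as units none passed (edgeR, 296 genes at an unadjusted p under 0.05), and DESeq2 called 1. Without endothelial barcodes 2 of the 6 passed. Leaving out control 1, control 3, knockout 1 or knockout 3 gave 28, 162, 20 and 20 genes.

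By gate, 63 interferon-high cells were NK-gated (Ncr1 or Klrb1c read, no Cd3 gene), 333 were T-gated (the reverse) and 95 had both. Of NK-gated lymphocytes, 6.94%, 2.31% and 5.31% were interferon-high in the control libraries, by number, and 12.9%, 6.25% and 4.19% in the knockout libraries. Of T-gated lymphocytes these were 7.79%, 4.76% and 7.40%, then 13.3%, 0% (0 of 5 cells) and 6.64%. At full depth, over the 4 libraries numbered 1 and 3, knockout 1 was highest in both gates. Each cell was also thinned to 1000 UMIs, with the limit lowered to 2 of the 9 genes. The share was then 5.00% (2.42 to 9.0), 6.59% (4.46 to 9.33), 3.45% (0.420 to 11.9) and 5.26% (1.96 to 11.1) of NK-gated lymphocytes in control 1, control 3, knockout 1 and knockout 3. Knockout 1 was lowest there, but on 2 of 58 cells, and the intervals overlapped. Of T-gated lymphocytes the share was 8.76% (5.35 to 13.3), 7.18% (6.18 to 8.29), 12.2% (9.55 to 15.4) and 8.76% (6.78 to 11.1), with knockout 1 highest. The summed level of the 9 genes, which needs no threshold, was highest in knockout 1 in both gates. It was 315, 242, 609 and 220 CPM in NK-gated and 487, 330, 512 and 274 CPM in T-gated lymphocytes of the same libraries. In these 4 libraries the NK-gated share of cells was 3.77 percentage points lower in interferon-high than in other lymphocytes, lower in 3 of 4 (two-sided exact permutation test of pairs, p = 0.25, where 4 pairs cannot go below 0.125). Thinned to 1000 UMIs the difference was 1.75 points the other way. Pooled over all libraries at full depth, T-gated cells were 67.82% of interferon-high and 68.07% of other lymphocytes. Cells with both kinds of gate gene were 19.35% and 13.21%.

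Between NK-gated and T-gated interferon-high cells 81 of 3795 genes passed with edgeR (2.13%), 53 higher in NK-gated cells (1.4%) and 28 lower (0.738%). The gate itself implies lineage genes among them. NK-gated sums rest on few cells, 17, 25, 9 and 7 in control 1, control 3, knockout 1 and knockout 3. T-gated sums hold 19, 189, 71 and 53. Klra4 was at 262, 125, 167 and 321 CPM in NK-gated and 0, 0, 0 and 2.84 CPM in T-gated interferon-high cells of control 1, control 3, knockout 1 and knockout 3. Tyrobp, an adaptor of activating NK receptors, was at 1580, 872, 1340 and 1270 CPM against 183, 38.9, 19.2 and 48.3 CPM (log2 4.41 ± 0.47 SE, edgeR adjusted p = 2.08e-05). Dscam, Car2 and Klra8 were the other named genes that were higher, by 5.23, 4.68 and 6.35. Themis, a T cell signalling protein, and Cd8a had 0 UMIs in NK-gated interferon-high cells of all 4 libraries, and Trac, Gm8369 and Bcl11b had at most 1 UMI per library, so their fitted changes are no bounds. Without endothelial barcodes 83 of 2562 genes passed, 64 higher and 19 lower, of which 40 and 13 were among the first.

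Interferon-response genes were also compared between the gates. In the antiviral list, with a range of -3.97 to 1.95, 1 of 21 measured was higher in NK-gated cells, Oasl1 (1.93, edgeR adjusted p = 0.0143). Ifi27l2a of this list was lower (-3.97, edgeR adjusted p = 7.39e-05). Over all genes tested 1.4% were higher and 0.738% lower. Of 13 GTPases and 18 MHC class I genes none passed. With 2.13% of all genes passing, a count of 0 says little about lists this short. A gene that missed the threshold is not shown to be alike in both gates. Irf8, a factor of myeloid and NK cells, was higher (2.36, edgeR adjusted p = 0.00115) and Slfn1 lower (-2.96, edgeR adjusted p = 0.0189). These 4 were named after their values were seen. Atf3 (2.89), Gzma (2.92) and Prf1 (3.18) were also higher in NK-gated cells, likewise named afterwards. The endothelial marker Ptprb (-5.04) and the hepatocyte transcripts Ttr and Alb (-4.45 and -3.18) were lower in them, and the part of RNA from other liver cells in these differences was not tested. Leaving out control 3, knockout 1 or knockout 3 gave 36, 53 and 138 genes in place of 81.

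Whether the step from other to interferon-high lymphocytes differed between the gates was tested over 9318 genes, and 0 (0.0%) passed with edgeR (551 at an unadjusted p under 0.05) and 0 with DESeq2 (259). Without endothelial barcodes 0 of 8782 passed (edgeR, 674 at an unadjusted p under 0.05). The smallest p belonged to Ass1, an enzyme of the urea cycle (-3.79 ± 0.64 SE, edgeR adjusted p = 0.155), Cd81, a tetraspanin (-5.35 ± 0.91, 0.155), and H19, a noncoding RNA of fetal liver and tumours (-3.76 ± 0.74, 0.289). H19 was at 29.2, 39.0, 20.9 and 89.2 CPM in NK-gated and 61.0, 752, 581 and 2790 CPM in T-gated interferon-high cells, from 2 to 14 UMIs per library in the former. Antiviral effectors had a median interaction of 0.30 over 27 genes (-1.08 to 1.12). Without knockout 1 the count was 67.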

How the data were processed

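Droplet mRNA of tumour-bearing mouse liver, in 6 libraries (3 control and 3 knockout), was read from deposited matrices of raw UMI counts for 33696 genes per barcode. The authors made them with Cell Ranger 7.0.1 for libraries numbered 1 and 2, which list called cells only, and 9.0.1 for those numbered 3, which list all barcodes, per the file headers. The submitters' processing notes name Cell Ranger 9.0.1 and GRCm39. Gene UMIs per library were 44326754, 4126740 and 122609032 in controls and 34369055, 4232577 and 88186316 in knockouts. Hashtag counts in the libraries numbered 3 stayed out of totals and tests. They were split with a 2-component Gaussian mixture per hashtag, fitted on the lymphocyte gate, a choice made after the data were seen, which gave 2551 single, 409 multiplet and 464 unassigned barcodes of 3424 and 865, 147 and 129 of 1141. No doublet caller was run on the other libraries.

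Members and gene lists were chosen with earlier results of these data known, and cells were chosen on measured values. UMIs were summed per library and kind of cell where at least 10 members (5 per gate) were present, and fitted with edgeR 4.0.16 in R 4.3.3 (TMM, filterByExpr, glmQLFit and glmQLFTest, library as block within libraries, two-sided, Benjamini-Hochberg threshold 0.05 over all genes tested). Standard errors were taken as |log2 fold change| over √F. DESeq2 1.42.0 was an alternative. Scripts were tested on simulated counts. Shares used exact binomial (Clopper-Pearson) 95% intervals and exact permutation tests (scipy 1.17.1). Intervals and limits for 0 counts (3 counts) cover counting error only. Levels of different genes were not compared, since 3′ counts do not measure length.

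Named were the rule genes, the 10 largest changes per direction with 20 UMIs in at least 2 libraries, up to 4 of the smallest p per list (30 lists), and up to 5 per direction in the other comparisons, or 3 to 5 of the smallest p where none passed. The named set was narrowed after its values were seen: 48 list genes that did not pass were kept out of the counts of alternatives. Under the alternatives they had 826 values, 65 of them of opposite sign. Alternatives changed the tool, scaling, low-count filter, rule, gate, depth, mitochondrial limit, multiplets, replicates and mice. Values of some genes in these lists are not reported here.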

Additional observations from a re-analysis of the deposited data

Results flagged for a closer look

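The difference between interferon-high and other lymphocytes changed between groups, by an interaction test in edgeR, in 6 genes: Hba-a1 (-6.37), Hbb-bs (-4.32), Hba-a2 (-4.48), Hbb-bt (-5.54), Gdf15 (-5.88) and Hamp (3.88), all as log2 values with knockout against control. Hbb-bs stood at 3.98, 586, 0 and 32.3 CPM in the interferon-high cells of control 1, control 3, knockout 1 and knockout 3, beside 4.16, 966, 2.28 and 1080 CPM in the other lymphocytes. Hamp stood at 11.9, 20.9, 2.40 and 364 CPM, beside 6.08, 37.0, 2.46 and 30.0 CPM, with the widest gap in knockout 3. Gdf15 stood at 7.96, 81.2, 1.20 and 1.15 CPM, beside 5.12, 10.3, 15.5 and 8.16 CPM, with the widest gap in control 3. These are transcripts of red cells, hepatocytes and stressed tissue, and the part of RNA from such cells in the result was not tested.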

How the results depend on the processing

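Share of lymphocytes: leaving out 1 library gave differences of -0.199 to 3.73 points, and a replicate block left 2.16 (p = 0.5, exact permutation of 3 pairs). The NK-gated share reversed to 1.75 points with thinning. Genes called between interferon-high and other lymphocytes (304) numbered 831 with no filter on low counts, 137 to 368 with 1 library left out, 118 with at least 3 of the 9 genes, 186 against cells with none of the 9, 531 with at most 15000 UMIs and 202 without endothelial barcodes. Between groups (0) there were 26 with no filter and 0 to 258 with 1 library left out. For the interaction with group (6) there were 1 with DESeq2, 23 with no filter, 20 to 162 with 1 library left out, 3 with at least 3 of the 9, 2 each without multiplets, with the strict gate and without endothelial barcodes, 0 with mice as units, 20 with at most 15000 UMIs and 37 with the replicate block. Same-numbered libraries had deviations that correlated at 0.59 over 4785 genes, but with 2 pairs they share only a number. Between gates (81) there were 338 with no filter, 36 to 138 with 1 library left out, 219 and 42 with at least 3 and 5 of the 9, 135 with the strict gate and 46 with mice. For the interaction with gate (0) there were 170 with no filter, 0 to 67 with 1 library left out, 3 each with at least 3 and 5 of the 9, 4 with the strict gate, 2 with mice, 22 within the interquartile depth and 11 with at most 15000 UMIs. The alternatives on 15000 UMIs and on endothelial barcodes were chosen after seeing the data. The cause of these moves was not tested.

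Of single named genes, 1306 values kept direction and side of the threshold, 216 lost the call, 13 gained it and 47 reversed. In log2, Ifng was -0.09 with at least 5 of the 9, -0.12 without multiplets, -0.01 with mice, -0.02 against cells with none of the 9 and -0.07 within the interquartile depth. Ifnar1 was -0.13 (without knockout 1) to 0.14 with 1 library left out and -0.16 against none of the 9. Il10rb was -0.0024 without control 3, -0.03 without knockout 3, up to 0.15 without other libraries, -0.08 with at least 3, -0.05 without multiplets, -0.02 with the strict gate, -0.09 with mice, -0.11 against none of the 9 and -0.11 without endothelial barcodes. Ifngr2 was -0.88 to 0.24 (without knockout 1) with 1 library left out and 0.05 with at least 5. Jak1 was -0.08 with at least 3 and -0.29 against none of the 9. Tyk2 was -0.28 without knockout 1, -0.13 with at least 3 and -0.48 against none. Irf8 was -0.01 with no filter, -0.03 (without knockout 3) to 0.1 with 1 library left out, -0.03 at 10% mitochondrial UMIs, -0.48 against none, -0.35 within the interquartile depth and -0.04 with at most 15000 UMIs. Irf3 was -0.04 with no filter, -0.0029 without control 1, -0.04 without control 3 and without knockout 3, 0.11 without knockout 1, -0.12 and -0.02 with at least 3 and 5, -0.01 at 10% mitochondrial UMIs, -0.02 without multiplets, -0.17 with the strict gate, -0.01 with at most 15000 UMIs and -0.22 without endothelial barcodes. Cdk1 was 0.05 against none. In the interactions Hamp was -0.20 with the strict gate, Hba-a2 -6.41 to 2.15 and Hbb-bt -8.59 to 2.77 with 1 library left out, the positive values without knockout 3, Ass1 0.01 with at least 3, 1.68 within the interquartile depth and 0.42 with at most 15000 UMIs, and H19 0.12 with at least 3. Of these genes only Cdk1, Hamp, Hba-a2 and Hbb-bt had passed.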
